A study of Mus musculus with 2 samples.

Results

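Dhh encodes Desert hedgehog, a secreted Hedgehog ligand. It is 1 of 27998 genes in the deposited gene table, and it was described here by following its unique molecular identifiers (UMIs, each standing for 1 captured transcript molecule) through both single-cell libraries, by cell lineage and among Schwann cells. A cell was taken as a Schwann cell when at least 2 of 4 glial genes (Sox10, S100b, Gpm6b, Cadm4) had a UMI. The gene was chosen because earlier summaries of these data had shown its pattern over lineages, libraries and the detection of Gfra3, Fabp7, Egfl8 and Sostdc1, so its levels along those lines are a description and were not tested.

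Both libraries were made from healed skin wounds of mice 4 to 5 weeks old that carried SM22rtTA, tetO-Cre and R26-Tomato. The control mice had no further allele, and the SM22-SmoM2 library also carried R26-SmoM2, an active form of the Hedgehog transducer Smoothened. In both, the promoter of SM22α (Tagln, a gene of smooth muscle and contractile wound cells) drove the doxycycline-dependent activator, doxycycline (20 g/kg) was given from day 1 after wounding until 3 days after complete re-epithelialization, and Tomato+ cells of the dermis were sorted for droplet sequencing. The sort was therefore meant to leave out cells in which the transgene had not been active, and its purity was not checked here. There was 1 library per condition, so no difference between conditions has a replicate check, no p-value is given, and every interval below is an exact 95% interval that covers counting error only, since cells of 1 library are not replicates.

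Hedgehog ligands bind the receptor Ptch1, which releases Smoothened and lets Gli transcription factors act on genes such as Gli1, Ptch1 and Hhip. Schwann cells, the glia of peripheral nerve, are a classical source of Desert hedgehog, and the surrounding nerve sheath cells are its known receivers. In the absence of the ligand the perineurium is thin and disordered. Endothelial cells have also been described as a source.

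The gene (ENSMUSG00000023000) lies on the minus strand of mouse chromosome 15 in GRCm38, at chr15:98891152-98898540, with 3 exons of 571, 262 and 3409 bases in the transcript Dhh-201. The libraries were read from the 3′ end of transcripts, and the last exon overlaps Rhebl1 on the same strand. The shared stretch covers 546 of 4242 exon bases (12.9%), so reads from there could belong to either gene. Rhebl1 itself was low in Schwann cells, at 5.995 CPM (UMIs of the gene for every 1000000 UMIs of the same cells) in control and 6.96 CPM with SmoM2. An antisense transcript, Gm49442, overlaps 1107 exon bases (26.1%) and was not in the deposited gene table. The 250 bases before the start of Dhh (RefSeq, GRCm38.p6, chr15:98898541-98898790, minus strand, written 5′ to 3′ along the gene) are shown because Dhh was read in both glial and endothelial cells and this is the annotated start of the gene. Capitals mark GC boxes, the motif GGGCGG searched on both strands.

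Dhh promoter: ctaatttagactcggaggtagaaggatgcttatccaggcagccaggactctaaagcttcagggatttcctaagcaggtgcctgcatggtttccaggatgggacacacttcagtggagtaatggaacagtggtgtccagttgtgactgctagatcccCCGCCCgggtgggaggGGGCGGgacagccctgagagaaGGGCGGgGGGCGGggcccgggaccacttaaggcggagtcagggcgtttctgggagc

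The window held 4 GC boxes, the nearest 44 bases and the farthest 94 bases before the start. At least 1 GC box was present in 32.7% of 32851 promoter windows of the same length. Its GC content was 59.6%, against a median of 52.4% over all windows. The letters ACAAAG and ACAATG, forms of the SOX motif, were not in this window and were present in 25.2% of windows. GCGTGGGCG and GCGGGGGCG, forms of the EGR motif, were also not in it and were present in 3.06% of windows. These matches and their absence describe letters only.

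Of 2878 control and 1802 SM22-SmoM2 barcodes, 2856 and 1792 had at most 10% mitochondrial UMIs and were kept. Together they held 30103855 and 17814222 UMIs, with medians of 8607.5 and 8837.5 UMIs per cell. Each library held cells with Y-linked UMIs but no Xist (1454 and 1134) and cells with Xist but no Y-linked UMIs (729 and 244). Each therefore came from mice of both sexes. Barcodes with UMIs of both kinds numbered 143 and 45. The barcodes that the libraries may share could not be counted, because the deposited barcode list is not matched to the matrix columns.

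Dhh was read 625 times in 393 control cells and 207 times in 136 SM22-SmoM2 cells. Schwann cells held most of it in each library. In the control library the 801 Schwann cells held 503 Dhh UMIs, or 80.5% of the total (95% interval 77.2% to 83.5%, Clopper-Pearson), while they made up 28.0% of the cells and 22.2% of all UMIs. The 333 Schwann cells of the SM22-SmoM2 library held 177 Dhh UMIs, or 85.5% (80.0% to 90.0%), with 18.6% of the cells and 15.3% of all UMIs. Of the 122 and 30 Dhh UMIs outside the gate, endothelial clusters held 114 in control (18.2% of the library's Dhh) and 22 in SM22-SmoM2 (10.6%).

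On the CPM scale, Dhh was 75.4 CPM (Poisson interval 68.9 to 82.3) in control Schwann cells and 64.8 CPM (55.6 to 75.1) in SM22-SmoM2 Schwann cells. Endothelial clusters, led by genes such as Pecam1 and Cdh5, stood next at 14.7 CPM (12.1 to 17.7) and 9.60 CPM (6.01 to 14.5). Fibroblast clusters held 4 UMIs each, or 0.306 CPM (0.0833 to 0.783) among 1032 control cells and 0.345 CPM (0.0939 to 0.882) among 1014 SM22-SmoM2 cells. Muscle clusters (Rgs5, Des) gave 1 UMI in 249 control cells, 0.597 CPM with an interval of 0.0151 to 3.33. No UMI was read in 88 SM22-SmoM2 muscle cells, which allows a level of up to 6.08 CPM and a share of up to 3.41% of cells by a limit of 3 counts. The two-sided exact intervals end higher, at 7.48 CPM and 4.11%. Immune clusters gave 1 UMI in 81 control cells and 0 in 33 SM22-SmoM2 cells, which allows up to 8.21 CPM by the same limit and 10.1 CPM by the two-sided interval. Keratinocytes numbered 12 and 1, too few to give a level. The order of these levels was thus Schwann, endothelial and then the other classes in each library. It leaves out 44 SM22-SmoM2 cells of a cluster without a name, with 1 Dhh UMI (3.72 CPM, 0.0941 to 20.7). It also leaves out ungated cells of clusters named as Schwann, at 42.8 and 60.7 CPM from 2 and 3 UMIs. The intervals of Schwann and endothelial cells did not overlap each other in either library, while those of fibroblast, muscle and immune clusters overlapped throughout. In SM22-SmoM2 the endothelial level could not be set apart from muscle and immune cells, since the levels that their counts of 0 allow lie above the lower end of its interval.

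**Figure D1:**
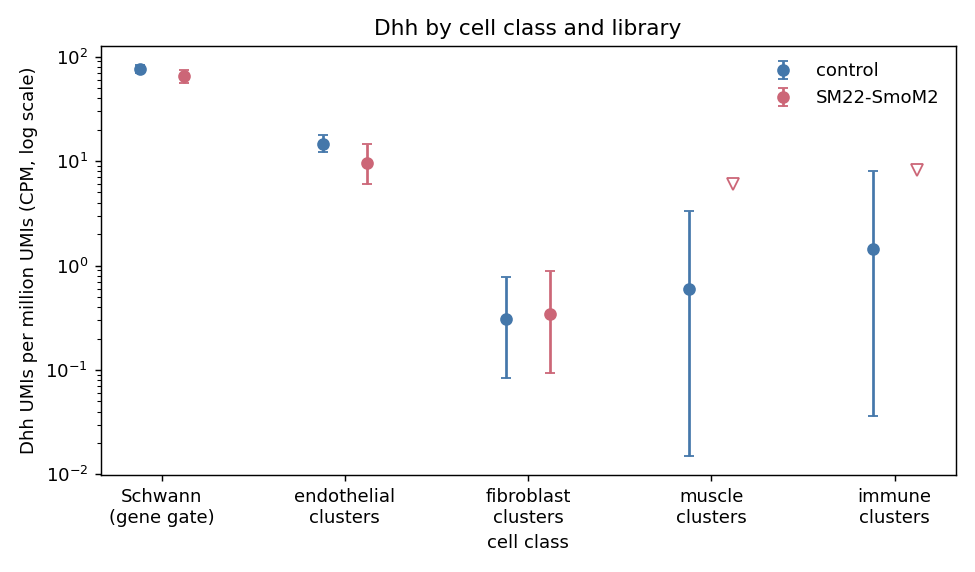
Dhh level in CPM (log axis) in 5 cell classes of the control (blue) and SM22-SmoM2 (red) libraries, with exact 95% Poisson intervals; open triangles mark the level of 3 UMIs where none was read. Schwann cells stand at 75.4 and 64.8 CPM, endothelial clusters at 14.7 and 9.60 CPM, and fibroblast clusters at 0.306 and 0.345 CPM.

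The plot by cell class shows Schwann cells above endothelial clusters, and endothelial above fibroblast clusters, in each library. Dhh was 5.13-fold (4.18 to 6.34) higher in Schwann than in endothelial cells in control and 6.76-fold (4.33 to 11.1) higher in SM22-SmoM2. Against fibroblasts the Schwann level was 247-fold (95.7 to 909) and 188-fold (72.2 to 698) higher. In the SM22-SmoM2 library it stood 10.7-fold above the 3 UMIs that stand for the count of 0 in muscle clusters, and the lower counting limit of that ratio was 3.59-fold. Over all cells outside the Schwann gate Dhh stood at 5.21 CPM (control) and 1.99 CPM (SM22-SmoM2).

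By cell, a Dhh UMI was seen in 36.1% of control Schwann cells (32.7% to 39.5%; median depth 6562 UMIs) and 32.4% of SM22-SmoM2 Schwann cells (27.4% to 37.8%; 6241 UMIs). Fibroblasts, which served as the level of a cell type that should lack the gene, showed it in 0.388% and 0.394% of cells although they were deeper (medians 12140 and 11108 UMIs). Thinned to 1500 UMIs per cell, 12.2% and 9.61% of Schwann cells, 2.09% and 2.26% of endothelial cells and 0.0969% and 0.0986% of fibroblasts still had a Dhh UMI.

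Most Schwann cells in which Dhh was seen had a single UMI. In control, 512 cells had none, 176 had 1, 64 had 2 and 49 had 3 or more, with a maximum of 9. In SM22-SmoM2 the same classes held 225, 71, 22 and 15 cells, with a maximum of 6. The tenth of Schwann cells with the most Dhh held 52.3% of its UMIs in control (81 cells) and 56.5% in SM22-SmoM2 (34 cells). A cell without a UMI is thus not a cell shown to lack the transcript at this depth.

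**Figure D2:**
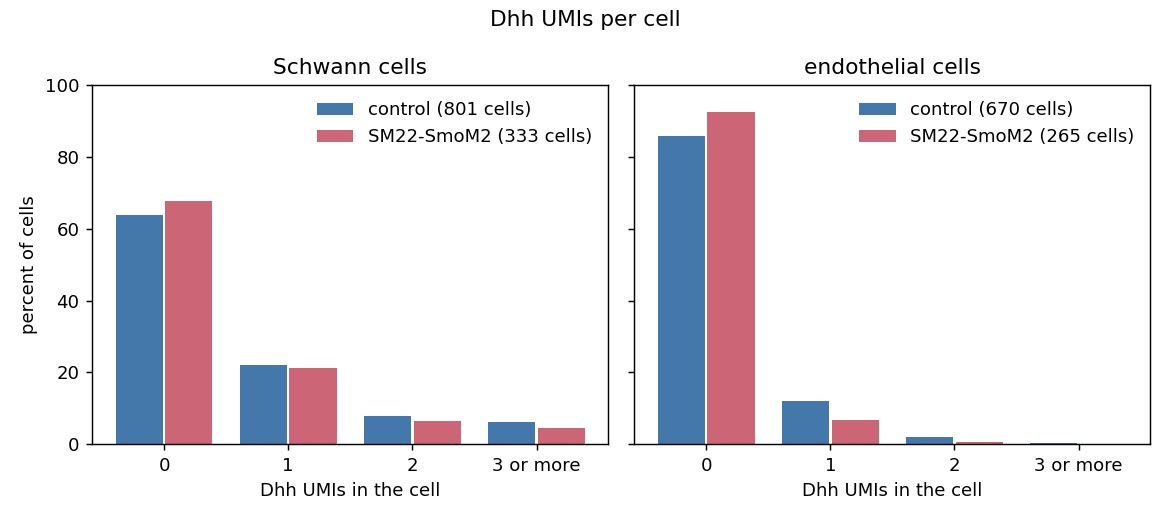
Percent of Schwann cells (left) and of endothelial cells (right) with 0, 1, 2, or 3 or more Dhh UMIs in the control (blue) and SM22-SmoM2 (red) libraries. In Schwann cells 49 control and 15 SM22-SmoM2 cells had 3 or more UMIs; in endothelial cells these were 2 and 0.

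The Schwann gate was checked against the clusters, which were built without Dhh, the other Hedgehog genes and the 4 state genes of the rule. Of the gated cells, 667 of 801 in control (83.3%) and 280 of 333 in SM22-SmoM2 (84.1%) lay in 3 Schwann-like clusters, which carried the myelin gene Mbp as well. These cells held 482 and 172 Dhh UMIs, at 103 CPM (94.2 to 113) and 87.4 CPM (74.8 to 101). The other 134 and 53 gated cells lay mainly in fibroblast clusters (75 and 39) and were deep, with medians of 14163.5 and 13718 UMIs. Dhh in them was 10.5 CPM (6.49 to 16.0) and 6.57 CPM (2.13 to 15.3). The gate therefore mixed cells with high Dhh and cells with little of it, and results within Schwann cells are given below for all gated cells and for the gated cells of Schwann-like clusters.

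Around the threshold of the gate, control cells with 2 of the 4 genes stood at 68.2 CPM and those with 1 at 1.98 CPM. In SM22-SmoM2 these values were 58.6 and 1.62 CPM. Cells with none of the 4 genes stood at 7.65 CPM (6.24 to 9.29) in control, above those with 1, and held 102 Dhh UMIs. In SM22-SmoM2 they stood at 2.08 CPM (1.35 to 3.08). Cells with 3 genes reached 75.7 and 73.5 CPM, and those with all 4 reached 115 CPM (89.2 to 146) in control and 64.1 CPM (36.7 to 104) in SM22-SmoM2.

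Dhh in endothelial and fibroblast clusters is given beside other Schwann transcripts of the same cells, as a percent of the level in Schwann cells. These clusters leave out the gated cells, which lowers any gene that goes with the gate genes, so the values with gated cells included are given as well, a choice made after seeing the data. In control, endothelial Dhh stood at 19.5% (16.1% to 23.4%) of the Schwann level, and at 20.3% (17.0% to 24.2%) with gated cells. In SM22-SmoM2 it stood at 14.8% (9.28% to 22.4%) and 14.3% (8.94% to 21.6%). Egfl8, which encodes a secreted EGF-domain protein, was at 5.15% and 4.48% without and 6.43% and 4.43% with gated cells. Mbp was at 0.442% and 0.276% without and 1.56% and 0.399% with them, and Sostdc1 at 0.302% and 0.729% without and 1.73% and 0.878% with them. In fibroblast clusters Dhh was at 0.406% and 0.532% of the Schwann level, and at 0.927% and 1.14% with gated cells. There the other 4 genes ran from 0.262% (Gfra3, SM22-SmoM2) to 1.16% (Mbp, control), and from 0.737% (Sostdc1, SM22-SmoM2) to 2.14% (Mbp, control) with gated cells. The part of free RNA and of barcodes with 2 cells in these values was not tested.

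**Figure D3:**
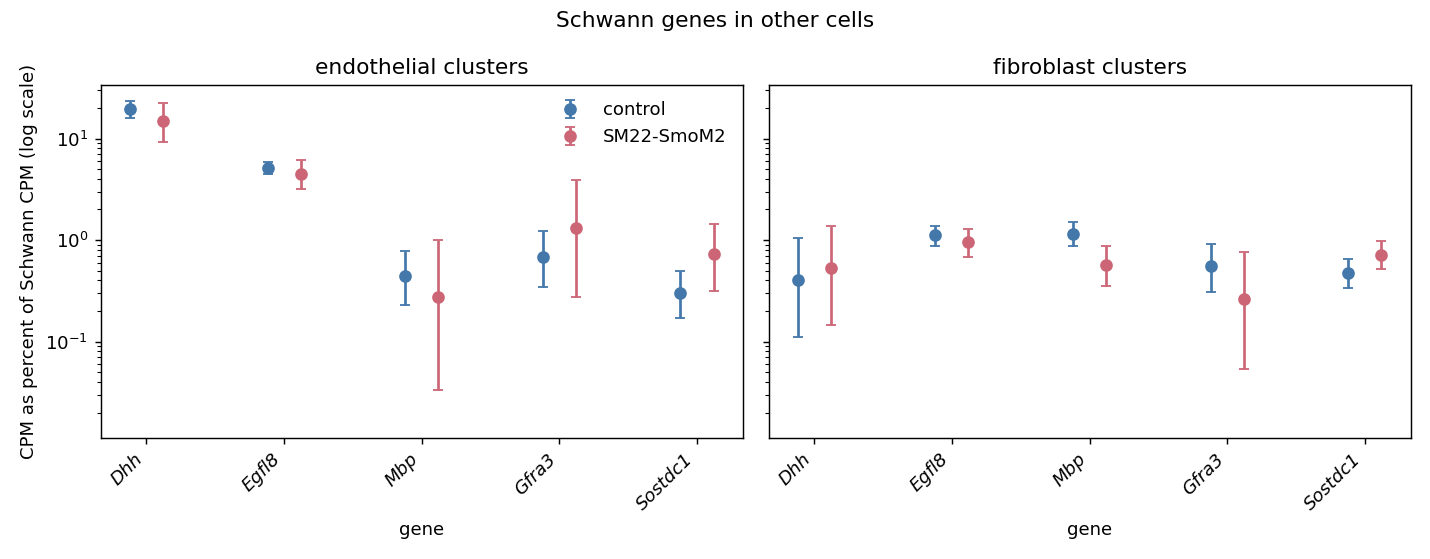
Level of Dhh and 4 other Schwann genes in endothelial (left) and fibroblast (right) clusters without gated cells, as a percent of their level in Schwann cells of the same library (log axis), with exact 95% intervals. Dhh stands at 19.5% and 14.8% in endothelial clusters against 0.442% and 0.276% for Mbp, and at 0.406% and 0.532% in fibroblast clusters.

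Endothelial cells with and without a Dhh UMI were compared in their Schwann transcripts, within clusters that had been named by endothelial markers. Gated cells of these clusters were left out, 32 in control with 12 Dhh UMIs and 5 in SM22-SmoM2 with 0. No compared cell could thus have 2 or more of Sox10, S100b, Gpm6b and Cadm4, so low detection of these genes was partly set in advance. The part of Schwann RNA in endothelial Dhh was not tested. In control, Mbp was detected in 1.04% of the 96 cells with Dhh and 1.92% of the 574 without, Sox10 in 1.04% and 0.523%, Gpm6b in 6.25% and 5.23%, and Cadm4 in 6.25% and 4.88%. S100b was detected in 6 of the cells without Dhh and in none with it, where the upper limit was 2.68 CPM. In SM22-SmoM2, Sox10 and Cadm4 were each detected in 1 of the 20 cells with Dhh, against 0.408% and 2.86% of the 245 without. Depth differed, with medians of 11784 and 11388 UMIs in cells with Dhh and 8742 and 6994 in cells without. When endothelial cells with a UMI of Mbp or Sox10 were left out, the log2 ratio of endothelial over fibroblast Dhh was 5.61 in control and 4.76 in SM22-SmoM2, against 5.59 (4.19 to 7.49) and 4.80 (3.24 to 6.80) with them. Among cells with Dhh, Mbp was detected in 1 control and 0 SM22-SmoM2 cells, and Sox10 in 1 cell of each library. The removal could therefore change this ratio little, whatever the source of the Dhh.

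Dhh was spread over all 4 endothelial clusters. Control levels ran from 9.31 CPM (4.96 to 15.9) in the cluster of deepest cells to 18.4 CPM (12.6 to 25.8) in the cluster with Ackr1, a chemokine-binding receptor of venules, and all 4 intervals overlapped. In SM22-SmoM2 the range was 5.65 CPM (1.17 to 16.5) to 14.0 CPM (6.73 to 25.8), and the lowest and highest clusters were the same. Cells with an Ackr1 UMI had 18.5 CPM against 11.6 CPM without in control (log2 0.67, 0.12 to 1.24), and 16.8 against 5.01 CPM in SM22-SmoM2 (log2 1.74, 0.36 to 3.28). Control cells with Gja5, a connexin of arteries, stood at 34.2 CPM against 12.1 CPM (log2 1.496, 0.85 to 2.11), and those with Flt4, a receptor of lymphatic and sprouting endothelium, at 5.83 against 16.6 CPM (log2 -1.51, -2.76 to -0.48). The interval also left out 0 for Dll4, a Notch ligand of arteries and sprouts, in control (12.2 against 18.2 CPM) and for Gpihbp1, a capillary protein, in SM22-SmoM2 (5.10 against 16.3 CPM). Other genes of these vessel types gave intervals that held 0. In control, the arterial genes Gja4, Sox17 and Efnb2 gave log2 ratios of 0.07, -0.15 and -0.21, and the venous genes Selp, Vwf and Nr2f2 gave 0.23, 0.39 and -0.32. In SM22-SmoM2 these venous genes gave 1.20, -0.43 and 0.60. The markers were chosen after the data were seen, and each was split on its own, out of 13 in control and 11 in SM22-SmoM2.

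Within Schwann cells Dhh followed the state genes of the rule. Gfra3 encodes a receptor of the glial-derived neurotrophic factor family and Fabp7 a fatty acid-binding protein of immature glia, while Sostdc1 encodes a secreted antagonist of BMP and Wnt ligands. Gated cells with Egfl8 or Sostdc1 and neither Gfra3 nor Fabp7 had 116 CPM in control (100.3 to 134; 198 cells) and 105 CPM in SM22-SmoM2 (83.4 to 130; 98 cells). Cells with genes of both sides stood at 86.5 CPM (76.9 to 97.0; 448 cells) and 66.6 CPM (52.7 to 83.0; 154 cells). Those with Gfra3 or Fabp7 alone stood at 30.2 CPM (16.9 to 49.8; 68 cells) and 27.9 CPM (10.2 to 60.6; 28 cells). The first of these classes exceeded the last by 1.95 on the log2 scale in control (1.19 to 2.81) and by 1.91 in SM22-SmoM2 (0.73 to 3.40). The size depended on the cells taken, with 1.09 in male and 3.79 in female cells of control, and alternatives from 1.03 to 3.07 in SM22-SmoM2. The sign was the same in 13 of 13 alternatives in each library, but these mostly reuse the same Dhh UMIs and are not independent support. The split was part of the rule that chose Dhh, and the class with Gfra3 or Fabp7 alone held only 15 and 6 Dhh UMIs.

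Cells with none of the 4 state genes were few and mixed. All 87 gated control cells of this class held 4 Dhh UMIs (3.50 CPM) at a median depth of 13719 UMIs, and the 53 SM22-SmoM2 cells held 10 (18.3 CPM). Only 16 and 17 of them lay in Schwann-like clusters, where the levels were 27.5 CPM (5.67 to 80.3) and 117 CPM (56.3 to 216). In those clusters the other classes kept their order, with 42.1 and 29.5 CPM for Gfra3 or Fabp7 alone, 95.01 and 71.0 CPM for both sides, and 148 and 123 CPM for Egfl8 or Sostdc1 alone. In SM22-SmoM2 the value for Gfra3 or Fabp7 alone rested on 4 Dhh UMIs in 25 cells. Its interval (8.04 to 75.5) overlapped that of both sides (56.1 to 88.6).

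**Figure D4:**
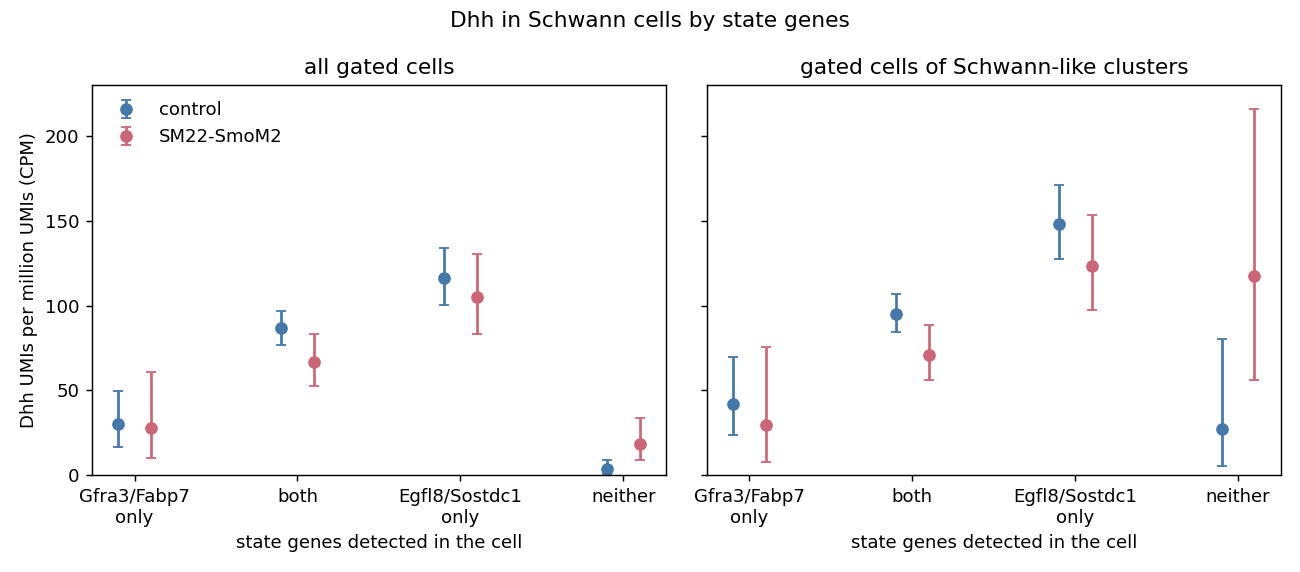
Dhh level in CPM in Schwann cells grouped by which state genes had a UMI, for all gated cells (left) and gated cells of Schwann-like clusters (right), with exact 95% Poisson intervals. In all gated cells the level goes from 30.2 and 27.9 CPM with Gfra3 or Fabp7 only to 116 and 105 CPM with Egfl8 or Sostdc1 only, in the control (blue) and SM22-SmoM2 (red) libraries.

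Taken singly, Egfl8 and Sostdc1 marked higher Dhh under either choice of cells, with 1 interval that held 0. Gated cells with a Sostdc1 UMI had 115 CPM in control against 28.9 CPM without (interval of the log2 ratio 1.67 to 2.35), and 105 against 31.0 CPM in SM22-SmoM2 (log2 1.76, 1.26 to 2.27). For Egfl8 the log2 ratio was 1.98 (1.54 to 2.44) in control and 1.34 (0.81 to 1.91) in SM22-SmoM2. In Schwann-like clusters the ratios were smaller, at 1.17 and 1.08 for Sostdc1 and 0.81 and 0.38 for Egfl8, the last with an interval of -0.18 to 0.97.

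The other side depended on the cells taken. Over all gated cells, Gfra3 gave a log2 ratio of 0.30 (0.04 to 0.56) in control and -0.10 (-0.62 to 0.40) in SM22-SmoM2, and Fabp7 gave -0.00134 (-0.27 to 0.26) and -0.19 (-0.65 to 0.26). In gated cells of Schwann-like clusters Gfra3 gave -0.33 (-0.59 to -0.07) and -0.57 (-1.10 to -0.07), from 92.6 against 116 CPM and 66.0 against 98.3 CPM. Fabp7 there gave -0.51 (-0.79 to -0.24) and -0.75 (-1.22 to -0.30), from 84.2 against 120.2 CPM and 65.2 against 110.1 CPM. Cells without these 2 genes included most of the deep gated cells of other clusters, in which Dhh was low.

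Each of the 3 Schwann-like clusters had Dhh. The cluster led by Sostdc1, with Egfl8 among its leading genes, had 148 CPM (132 to 166; 307 cells) in control and 126 CPM (103 to 152; 123 cells) in SM22-SmoM2. The cluster with Pbk, Ube2c and Birc5, genes of dividing cells, among its leading genes had 76.3 CPM (56.4 to 101; 60 cells) and 69.4 CPM (49.4 to 94.9; 49 cells), and the cluster with Gfra3 and Chl1 among its leading genes had 62.1 CPM (51.5 to 74.1; 311 cells) and 51.0 CPM (34.9 to 71.9; 122 cells). The first exceeded the last by 1.26 on the log2 scale in control (0.95 to 1.57) and by 1.30 in SM22-SmoM2 (0.72 to 1.92), while the intervals of the cycling cluster and the cluster with Gfra3 overlapped.

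Gfra3 stood at 441 CPM in the cluster named with it and 183 CPM in the Sostdc1-led cluster of the control library, and Ptprz1, a receptor phosphatase of glial precursors, at 253 and 119 CPM. Btc, an EGF family ligand of repair Schwann cells, ran the other way, at 51.9 and 211 CPM. Dhh was likewise higher in the Sostdc1-led cluster in each library.

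**Figure D5:**
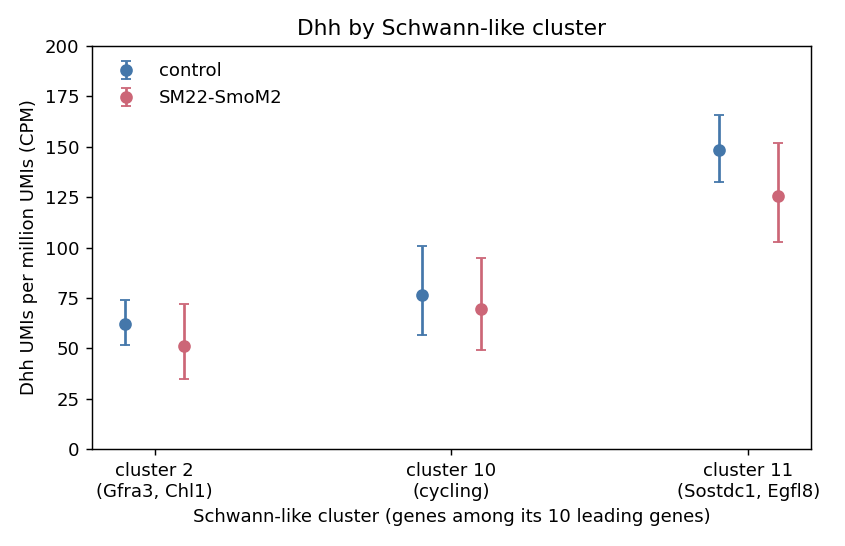
Dhh level in CPM in each of the 3 Schwann-like clusters, named by genes among their leading genes, with exact 95% Poisson intervals; control is blue and SM22-SmoM2 red. The cluster with Sostdc1 and Egfl8 stands highest, at 148 and 126 CPM, and the cluster with Gfra3 and Chl1 lowest, at 62.1 and 51.0 CPM.

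Further genes were split by detection in Schwann-like clusters. Egr2, the regulator of myelination, gave 0.56 (0.30 to 0.83) and 0.52 (0.07 to 0.98), and the precursor gene Sox2 gave -0.11 and -0.06 with intervals that held 0. The myelin gene Mbp gave -0.06 (-0.35 to 0.25) and -0.12 (-0.57 to 0.33). Sox10 gave 0.08 and 0.15, also with 0 inside. S100b, a calcium-binding protein that the gate used, gave -0.40 (-0.69 to -0.12) and -0.999 (-1.65 to -0.40). Mki67, a proliferation gene, gave -0.61 (-1.06 to -0.19) and -0.28 (-0.86 to 0.25). Depth was unequal in these splits, with control medians of 9536 UMIs with Mki67 and 5716.5 without. Thinned to 3000 UMIs, over all gated cells, S100b gave 0.03 (-0.50 to 0.53) and -0.76 (-2.04 to 0.31). Egr2 then gave 0.52 (0.07 to 0.96) and 0.23 (-0.70 to 1.08), and Mki67 gave -1.26 (-3.15 to 0.12) and 0.04 (-1.88 to 1.47).

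Read the other way, from Dhh to all other genes, few genes were called in both libraries. Sostdc1 and Egfl8 belong to the rule by which Dhh was chosen, so their ratios here restate the splits above and add no support. A gene was called where the ratio of its CPM between Schwann cells with and without a Dhh UMI was at least 2-fold and its counting interval left out 0. Over all gated cells 5 of 6074 genes were called higher in both libraries (0.0823%) and 160 lower (2.63%). The higher genes included Sostdc1 (1015 against 414 CPM in control and 879 against 274 CPM in SM22-SmoM2), Egfl8 (825 against 381 and 572 against 281 CPM), the potassium channel Kcnn4 (54.4 against 22.6 and 63.8 against 27.7 CPM) and the collagen Col11a1 (163 against 79.0 and 139 against 63.1 CPM). None of these 4 genes was called in both libraries when each cell was thinned to 3000 UMIs, which left 3 genes called higher and 37 lower. The lower genes were led by Dlk1, Lrg1, Gpc3, Glipr1, Rarres1, Igf1, Dcn, Col26a1, Penk and Clec3b. Dcn, a matrix proteoglycan of fibroblasts, stood at 284 against 2708 CPM in control and 139 against 1308 CPM in SM22-SmoM2.

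Fibroblast markers moved with the comparison over all gated cells. Of 6 fibroblast genes, 5 were called lower in each library, with medians of -2.30 and -2.38 on the log2 scale against medians of 0.04 and 0.06 over all genes compared, of which 4.55% and 5.43% were called lower. Markers of other lineages moved too. Of those with enough UMIs, 5 of 5 keratinocyte genes, 3 of 3 immune genes, 3 of 5 muscle genes, 2 of 4 melanocyte genes and 0 of 6 endothelial genes were called lower in control, and 2 of 3 muscle genes, 3 of 3 endothelial genes and 0 of 1 keratinocyte gene in SM22-SmoM2. In control the gated cells included only 3 cells of the keratinocyte cluster and 1 of the immune clusters. Krt14 had 300 UMIs and H2-Aa 223 in gated control cells without Dhh, against 34 and 22 in those of Schwann-like clusters. The part of these markers in the ratios of other genes was not tested. Within Schwann-like clusters none of the 4 and 3 fibroblast genes with enough UMIs was called. There 3 of 4977 genes were called higher in both libraries (0.0603%) and 1 lower (0.0201%), and none was shared with those of all gated cells. The higher genes were the chemokine Cxcl14 (206 against 78.3 CPM and 362 against 78.1 CPM), the pyrophosphate transporter Ank (44.2 against 22.0 and 84.1 against 24.5 CPM) and Ddah1, which breaks down methylated arginines (47.3 against 23.2 and 63.3 against 28.2 CPM). Col20a1, a collagen, was the lower gene (13.5 against 54.2 and 14.97 against 44.5 CPM). The cells with Dhh were deeper, with medians of 6935 and 7211.5 UMIs against 5279.5 and 5052.5.

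The state genes of the rule are given here as a description, since their ratios restate the splits by detection above. In Schwann-like clusters they were below the 2-fold call in control and passed it for Sostdc1 and Fabp7 in SM22-SmoM2. Cells with a Dhh UMI had log2 ratios of -0.47 and -0.94 for Gfra3, -0.71 and -1.21 for Fabp7, 0.58 and 0.45 for Egfl8 and 0.72 and 1.07 for Sostdc1. Gap43, a growth-associated gene of non-myelinating glia, gave -0.70 (-0.87 to -0.53) and -0.88 (-1.23 to -0.53). Btc gave 0.44 (0.20 to 0.68) and 1.20 (0.79 to 1.63). Other genes of their lists went the other way. Of the non-myelinating and immature genes compared, 2 of 9 in control and 4 of 7 in SM22-SmoM2 were positive, among them Ngfr (0.16 and 0.62). Of the repair genes, which include Btc, 2 of 7 and 1 of 5 were positive, and Atf3 gave -0.36 and -0.58. Over all genes compared there, 54.1% and 52.1% were positive.

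Summed myelin genes differed between the 2 libraries. In control, 3 of the 6 myelin genes with enough UMIs (Mbp, Prx and Ncmap) were called higher in gated cells with Dhh, with a median log2 ratio of 1.03. In SM22-SmoM2 none of 5 was called, with a median of 0.06. Genes called in 1 library made up 0.633% (higher) and 4.55% (lower) of those compared in control and 1.2% and 5.43% in SM22-SmoM2. In Schwann-like clusters the signs were opposite, with log2 ratios of 0.60 (0.47 to 0.72) and -0.62 (-0.84 to -0.41) for Mbp, 0.56 and -0.68 for Pmp22, 0.23 and -0.27 for Cnp, and 0.24 and -0.38 for Mal. Of the 5 myelin genes with enough UMIs there, 1 was called in each library, Ncmap, higher in control (4.82, 2.89 to 7.90) and lower in SM22-SmoM2 (-1.24, -2.23 to -0.34). These sums rested on few cells, since 5 cells held 24.4% of the Mbp UMIs of control and 51.3% of those of SM22-SmoM2. Without the 5 cells that held most UMIs of the gene, Mbp gave -0.075 (-0.22 to 0.07) and -0.26 (-0.55 to 0.04), and Pmp22 gave 0.15 (0.06 to 0.24) and -0.0127 (-0.18 to 0.15). Cnp then gave 0.07 and -0.23, and Mal 0.06 and -0.0393, each with an interval that held 0.

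Other Schwann lists were mostly not called. Of the 9 genes of non-myelinating and immature Schwann cells, 9 and 7 could be compared in Schwann-like clusters, and none was called (medians -0.23 and 0.09). Of 10 repair genes, 7 and 5 could be compared, and 1, Btc in SM22-SmoM2, was called. All 10 lineage regulators could be compared and none was called in either library (medians -0.08 and -0.07). These medians stand beside 0.03 and 0.02 over all genes compared there, of which 0.537% were called higher and 0.51% lower in control, and 0.823% and 1.43% in SM22-SmoM2.

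Between conditions the interval of the Schwann Dhh ratio held 0. The ratio of SM22-SmoM2 over control was -0.22 on the log2 scale (-0.47 to 0.03), from 64.8 and 75.4 CPM. It was -0.24 (-0.50 to 0.01) in gated cells of Schwann-like clusters, -0.28 (-0.89 to 0.29) in the cluster with Gfra3, -0.14 (-0.78 to 0.50) in the cycling cluster and -0.24 (-0.58 to 0.08) in the Sostdc1-led cluster. Of the state classes, cells with genes of both sides gave -0.38 (-0.75 to -0.01), and the classes of a single side gave -0.12 and -0.15 with 0 inside. Male cells stood at 70.0 and 68.1 CPM (log2 -0.04, -0.39 to 0.31) and female cells at 75.0 and 77.1 CPM (log2 0.04, -0.46 to 0.52). The interval of the Schwann ratio runs from a level 0.720 times that of control to 1.02 times. It covers counting error only and is not a limit of detection.

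Among 9868 genes compared between the Schwann cells of the 2 libraries, 108 were called higher (1.09%) and 302 lower (3.06%) in SM22-SmoM2. The Dhh ratio was larger in size than that of 49.4% of these genes, whose median absolute log2 ratio was 0.22. Over whole libraries Dhh was lower in SM22-SmoM2, at 11.6 against 20.8 CPM (log2 -0.84, -1.07 to -0.61), and Schwann and endothelial cells together made up a smaller part of that library. Endothelial Dhh gave -0.62 (-1.35 to 0.05). Whether condition, mice or handling set these differences cannot be told apart with 1 library each.

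The other 2 ligands were rarely read. Shh was read 3 times in control and 2 times in SM22-SmoM2 Schwann cells, and not at all in endothelial, muscle or fibroblast clusters. Ihh was read 2 and 0 times in Schwann cells and 5 and 3 times in fibroblast clusters. Genes for making and releasing the ligand were read at low levels in Schwann cells, and none of the 6 reached the 50 UMIs needed to compare libraries. Hhat, which attaches the palmitate, stood at 4.197 and 4.395 CPM. Disp1, which releases the lipid-bearing ligand from the membrane, stood at 3.30 and 4.03 CPM. Its secreted partners Scube1 (1.80 and 1.47 CPM), Scube2 (1.20 and 1.83 CPM) and Scube3 (1.35 and 0.366 CPM) were sparse, and Disp2 had 0 UMIs in each library.

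On the receiving side, the pathway targets were highest in SM22-SmoM2 fibroblasts, in which Dhh was almost not read. Ptch1, receptor and target, stood at 11.2 CPM in control fibroblast clusters and 144 CPM in SM22-SmoM2, where the target Gli1 went from 5.89 to 31.4 CPM and the ligand-binding inhibitor Hhip from 0.688 to 35.2 CPM. Dhh in those same fibroblasts stayed at 4 UMIs in each library. Among gated Schwann cells Ptch1 was called higher in SM22-SmoM2, at 42.5 against 16.2 CPM (log2 1.39, 1.00 to 1.78). It counts in both lists, as 1 of the 4 receptor genes and 1 of the 3 pathway genes with enough UMIs. Over all genes compared, 1.09% were called higher. Much of the Ptch1 sum lay in gated cells of other clusters, which had 102 against 23.0 CPM. In gated cells of Schwann-like clusters Ptch1 was 19.3 CPM (13.7 to 26.5) in SM22-SmoM2 and 13.3 CPM (10.2 to 17.0) in control, and Gli1 was 2.54 (0.83 to 5.93) and 0.642 (0.13 to 1.88) CPM.

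Ptch1 was also compared between cells with and without Dhh within Schwann-like clusters. It was 14.9 CPM (10.2 to 20.9) with and 11.8 CPM (7.92 to 17.0) without a Dhh UMI in control, and 20.7 CPM (12.3 to 32.8) and 18.2 CPM (11.1 to 28.1) in SM22-SmoM2. The co-receptor Gas1 was 26.6 and 24.1 CPM in control and 21.9 and 22.7 CPM in SM22-SmoM2. The intervals overlapped in each of these pairs.

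Nerve sheath cells were looked for as the known receivers. Fibroblasts with at least 3 of 7 perineurial genes numbered 12 in control and 49 in SM22-SmoM2. They held 0 and 2 Dhh UMIs. Their Ptch1 was 15.5 CPM (3.20 to 45.4) in control and 281 CPM (243 to 322) in SM22-SmoM2, against 11.1 CPM and 135 CPM in the remaining fibroblasts. The control value rested on 3 UMIs, and its interval holds the level of the remaining fibroblasts. The SM22-SmoM2 mice carried active Smoothened, so a response to Dhh cannot be told apart from the allele there. Whether cells of either library received Dhh was not tested. Perineurial genes such as Cldn1 also led a fibroblast cluster that was mostly SM22-SmoM2, so these cells are given by their genes and not by a name.

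The genes most like Dhh were ranked by the Pearson correlation of log2(CPM + 10) over 32 groups of cells, each a cluster in a library with at least 20 cells, among 12872 genes. The 10 highest were Slc22a23 (0.97), Mal (0.95), Fbxo7 (0.95), Egfl8 (0.94), Cnp (0.94), Lrrc8b (0.94), Ttc9 (0.93), Aatk (0.93), Ttyh1 (0.93) and Moxd1 (0.93). Mal and Cnp are genes of myelinating glia, Slc22a23 belongs to a family of organic ion transporters, and Lrrc8b is a subunit of a volume-regulated channel. The groups share libraries and differ chiefly between lineages, so these values describe which genes share the pattern of Schwann above endothelial above other cells.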

How the data were processed

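Dermal Tomato+ cells were profiled with Single Cell 3′ v2 chemistry (10x Genomics). Per the submitters' processing notes, bcl2fastq and Cell Ranger were used with the build mm10. The authors deposited raw UMI counts per gene and cell. Versions and the annotation are not given in the sources used here. Counting UMIs removes PCR copies, and assignment from the 3′ end makes genes that overlap there uncertain. Cells with at most 10% mitochondrial UMIs and at least 200 genes were kept. Clusters came from k-means (K = 20, 50 starts) on 20 principal components of 2000 variable genes, without the Hedgehog and state genes, and were named where at least 3 fixed markers passed. Doublets were not removed, and Scrublet, run through scanpy, marked 5 and 11 barcodes. Summed UMIs were given as CPM with exact Poisson, conditional binomial and Clopper-Pearson 95% intervals, and the ratio code was checked on simulated data. For ratios, 3 UMIs stood in for a zero, and pairs of counts that were both 3 or fewer gave none. Alternative gates, clusterings, thinning, filters and cells of 1 sex were tried. Genes with at least 50 UMIs over the compared cells entered the comparisons across genes. Named genes were Dhh, the 8 genes of the rule, the listed pathway and marker genes, the 10 genes most like Dhh, and up to 10 called in both libraries in each direction, leaving out mitochondrial, ribosomal and sex-linked genes (159 of the 160 lower genes remained). Results that need certain genes are not reported here, and list counts leave those genes out. Dhh and the lists were chosen with earlier results of these data known. The comparisons restricted to Schwann-like clusters for state genes and for called genes, the myelin ratios without the 5 richest cells, the removal of endothelial cells with Mbp or Sox10, the endothelial markers and the removal of cells with melanocyte genes were chosen after seeing the data. Python 3.11.15, numpy 2.4.6, scipy 1.17.1, pandas 2.3.3, scikit-learn 1.9.0, scanpy 1.11.5, leidenalg 0.10.2 and matplotlib 3.10.9 were used.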

Additional observations from a re-analysis of the deposited data

Results flagged for a closer look

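For 7 contrasts within gated Schwann cells the sign differed between the libraries while at least 1 counting interval left out 0. The difference between libraries was not tested in any of them, with 1 library per condition. The log2 ratio of Dhh between cells with and without Gfra3 was 0.30 in control and -0.10 in SM22-SmoM2, and in gated cells of Schwann-like clusters it was negative in both. The other contrasts compared genes between cells with and without a Dhh UMI.

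Among myelin genes, Pmp22 gave 0.95 in control (0.87 to 1.03) and -0.10 in SM22-SmoM2 (-0.23 to 0.03), and Ncmap, a membrane protein of myelinating Schwann cells, gave 4.39 (2.95 to 6.32) and -0.59 (-1.54 to 0.29). Within Schwann-like clusters 5 cells held 94.3% of the Ncmap UMIs in control and 96.4% in SM22-SmoM2. Pou3f1, a regulator of the promyelinating stage, gave 0.82 (0.60 to 1.04) and -0.0332 (-0.38 to 0.30).

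The repair genes Jun and Gdnf gave 0.24 and -0.0872, and 0.27 and -0.0438. In gated cells of Schwann-like clusters both genes were negative in each library, at -0.06 and -0.18 for Jun and -0.21 and -0.61 for Gdnf. Nab2, a partner of EGR factors, gave -0.26 (-0.53 to -0.00489) and 0.28 (-0.09 to 0.65). A further 6 contrasts had opposite signs with intervals that held 0 in both libraries.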

How the results depend on the processing

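No paired analysis was possible because each condition had 1 library and no replicate numbers. Of 182 alternative values, 132 stayed within their counting error, 47 moved and 3 changed sign where the reported interval left out 0. The ratio between conditions, whose interval held 0, changed sign among those that moved. The Schwann over other ratio kept its sign in 13 of 13 alternatives in each library, and the ratio between conditions in 13 of 14. Most alternatives reuse the same Dhh UMIs, so a kept sign is not independent support.

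With at least 3 gate genes, control Dhh was 82.6 CPM, Schwann over others 2.66 and 3.38 (log2, control and SM22-SmoM2), and the share of Dhh in Schwann cells 44.0% and 44.9%. With Schwann-like clusters in place of the gate, Dhh was 103 and 86.7 CPM and the control ratio over others 4.21. With both criteria it was 103 and 87.4 CPM, with a control ratio of 4.198 and a control share of 77.1%. Thinned to 1500 UMIs, control Dhh was 90.7 CPM with a share of 87.2%, the control ratio of Egfl8 or Sostdc1 only over Gfra3 or Fabp7 only was 1.16, and the SM22-SmoM2 ratio over others 4.17. Thinned to 3000 UMIs, control Dhh was 86.1 CPM with a share of 87.3%. The mean of per-cell CPM was 84.5 in control. In male cells the control share was 76.5% and the control state ratio 1.09. In female cells these were, for the ratio over others, 3.51 and 3.14, for the control state ratio 3.79, for SM22-SmoM2 Dhh 77.1 CPM, and for the ratio between conditions 0.0381.

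Genes called in both libraries between Schwann cells with and without Dhh numbered 5 higher and 160 lower. They numbered 3 and 37 after thinning to 3000 UMIs (33 of the lower genes shared), 11 and 258 from 20 UMIs on, and 3 and 1 in Schwann-like clusters. Of the 10 genes most like Dhh, 5 were shared with a pseudocount of 1 CPM and 2 with Spearman ranks. The 3 sign changes were for Gfra3 in control (-0.33 in Schwann-like clusters, -0.0428 thinned to 3000 UMIs) and, without the 5 cells with most Mbp UMIs, for Mbp in control (-0.075). Endothelial, fibroblast, muscle and immune levels moved by less than their counting error with K of 12 or 30 or Leiden clustering.

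Depth limits what a missing Dhh UMI means. In SM22-SmoM2 the counts of 0 allow up to 6.08 CPM in muscle cells and 8.21 CPM in immune cells, by the limit of 3 counts.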

Other observations

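Other markers within the Schwann gate differed between the 2 libraries, which with 1 library per condition cannot be set down to condition. Gfra3 was called lower in SM22-SmoM2 Schwann cells, at 98.5 against 207 CPM (log2 -1.07, -1.27 to -0.88), while Fabp7 stood at 127 and 119 CPM. Ncmap was called higher, at 21.6 against 8.24 CPM, from 59 and 55 UMIs. In gated cells of Schwann-like clusters, 5 cells held 96.4% of its UMIs in SM22-SmoM2 and 94.3% in control, so this call rested on few cells. Over all genes compared, 1.09% were called higher and 3.06% lower in SM22-SmoM2. Of endothelial genes in the gate 5 of 6 were called lower (Pecam1 19.8 against 60.1 CPM), as were 4 of 4 melanocyte, 5 of 5 keratinocyte and 3 of 4 immune genes with enough UMIs, 1 of 6 fibroblast genes and 1 of 5 muscle genes. By cluster, the gated cells included 32 endothelial, 3 keratinocyte and 1 immune cell in control, against 5, 0 and 0 in SM22-SmoM2. The part of these cells in the calls was not tested. The gate held 11 control and 2 SM22-SmoM2 cells with at least 2 melanocyte genes, and these carried 8 and 0 Dhh UMIs.

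By depth, gated control cells stood at 65.3 CPM of Dhh below 4000 UMIs, 102 CPM between 6000 and 8000, and 47.0 CPM above 12000. In SM22-SmoM2 these values were 72.0, 115 and 36.6 CPM. Barcodes called both female and male had 37.0 CPM in control (53 cells) and 17.6 CPM in SM22-SmoM2 (11 cells), and cells with neither had 126 CPM (150 cells) and 54.8 CPM (78 cells). The ungated cells of Schwann-like clusters held 2 UMIs in 11 control cells and 3 in 14 SM22-SmoM2 cells.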
